A study of Homo sapiens with 4 samples.

Results

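The cytokines described here are the proteins that a natural killer (NK) cell secretes toward other cells, as opposed to the granules it releases onto a target. They were taken as 10 genes, IFNG, LTA, LTB, TNF, CSF2, IL10, IL13, IL5, TGFB1 and IL32, which were found by symbol among the 20323 genes listed for NK-92 cells. NK-92 is a human NK cell line that was grown in suspension with interleukin 2. Cells with a lentiviral scrambled hairpin (NK scramble) were compared with cells carrying a lentiviral hairpin against ADAR1 (NK shADAR1), the enzyme that edits adenosine to inosine in double-stranded RNA, with 2 libraries in each group that the series describes as independent biological replicates. All 4 libraries come from 1 cell line in the same interleukin 2 medium with no added target cell, so cytokine induction on contact was not sampled. The knockdown libraries carry the numbers 1 and 2, which were read as replicate numbers. The study also uses such numbers to name its hairpins, and its text gives the hairpin shADAR1-2 for the sequenced cells, so both libraries were taken to carry that hairpin.

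IFNG encodes interferon gamma, which activates macrophages and raises antigen presentation in other cells. LTA, LTB and TNF encode 3 ligands of the tumor necrosis factor family. LTA is secreted as a homotrimer, LTB holds lymphotoxin at the cell surface as a heterotrimer with LTA, and TNF is made as a membrane protein and cut free. CSF2 encodes GM-CSF, a growth factor of myeloid cells, and IL5 and IL13 encode cytokines of type 2 immunity that act on eosinophils and on epithelium. IL10 and TGFB1 encode inhibitory cytokines, of which TGF-beta 1 is kept latent until it is released from its propeptide. IL32 encodes a proinflammatory cytokine of lymphocytes that has no mouse ortholog. In NK cells IFNG and LTA are induced downstream of STAT4, STAT5, T-bet and NF-kappa B, and many cytokine mRNAs are short lived through AU-rich elements.

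The start sites of these genes are of more than 1 kind, and the sequences below show the region just before the start for 5 of them. Of the 10 genes, 9 had promoter windows in RefSeq (GRCh38.p14), 15 windows in all, each holding 250 bases before the start site and 50 from it on. Each line gives bases -40 to -11 from the start site, 5′ to 3′ on the strand of the gene, with TATAA in capitals where it occurred.
IFNG: tcaattaggTATAAataccagcagccagag
TNF: ccccagggacaTATAAaggcagttgttggc
IL10: gagcttacaaTATAAaagggggacagagag
LTB: cgtccctgaggtatgaaagccccctgctct
TGFB1: ggggcggcttcaaaaccccctgccgaccca
The stretches lie at chr12:68159751-68159780 on the minus strand for IFNG, chr6:31575525-31575554 on the plus strand for TNF, chr1:206772505-206772534 on the minus strand for IL10, chr6:31582436-31582465 on the minus strand for LTB and chr19:41353933-41353962 on the minus strand for TGFB1. IFNG, TNF and IL10 held TATAA from position -31, -29 and -30, and the letters were absent from the LTB and TGFB1 stretches. For IL10 this was the start site at base 206772494 of chromosome 1, and the windows of its other start sites held no TATAA. LTA held TATAA from position -31 of its start site at base 31572289 of chromosome 6, inside the first exon of another LTA transcript, and IL13 held it from position -31 of 1 of its start sites, at base 132658173 of chromosome 5. Searched on both strands, TATAA occurred in 20.4% of 35116 promoter windows, and in 5.04% it began between 45 and 20 bases before the start.

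A palindrome of the kind bound by STAT proteins (TTCNNNGAA, both strands) was present in windows of IFNG, LTA, LTB and CSF2. It was picked for display with the results known, as IFNG and LTA are the 2 members with the largest difference between the groups. LTB, with a smaller difference, and CSF2, which was not tested, held it too. LTA held a second match, not shown, from position -12 of its start site at base 31572099. The palindrome is in capitals.
IFNG: aaagtgccTTCAAAGAAtcccaccagaatg
LTA: atgattgctcTTCAGGGAAccgggcctcca
LTB: tcttccccagTTCAGAGAAcccaggcatcc
CSF2: gggctgtcggTTCTTGGAAaggttcattaa
These stretches lie at chr12:68159961-68159990 (minus strand), chr6:31571938-31571967 (plus), chr6:31582571-31582600 (minus) and chr5:132073589-132073618 (plus). The palindrome occurred in 7.66% of all windows, a share per window, where a gene can have more than 1 window. Of the other motifs searched on both strands, kappa B occurred in windows of LTA, LTB, TGFB1, IL32 and IL13 (11.3% of all windows), AP-1 (TGANTCA) in 1 of IL10 (7.71%) and the NFAT core (GGAAAA) in windows of TNF, CSF2, IL13 and IL32 (24%). A match of letters is a description of the window and says nothing of binding in these cells. Whether any of these motifs goes with the differences between the groups was not tested.

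The targeted gene ADAR had 655 and 682 CPM (counts scaled to a common depth with TMM library sizes) in NK scramble replicates 1 and 2, and 575 and 482 in NK shADAR1 replicates 1 and 2. Both knockdown libraries were lower, with a log2 fold change of -0.34 (SE 0.20) that did not pass the test (edgeR, adjusted p = 1.00). The libraries held 37881704 to 39960491 estimated counts. Of 11810 genes tested by edgeR with Benjamini-Hochberg adjustment, 0 passed an adjusted p of 0.05 in either direction, against 293 at an unadjusted p under 0.05, and DESeq2 gave 0 and 275. Libraries of 1 group correlated no better (r = 0.981 in both groups) than libraries of different groups with the same number (r = 0.985 and 0.989, across genes, which are not independent replicates). In bulk RNA, fewer cells with a transcript and less transcript per cell cannot be told apart.

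The cells carried NK markers throughout. All 14 NK markers were detected and tested, NKG7 (1742 to 2081 FPKM), GZMA (1131 to 1732 FPKM) and GNLY among them, and 0 passed a threshold. Their summed FPKM was 5183 to 6231 in NK scramble and 5851 to 6039 in NK shADAR1 libraries. Of 8 T cell markers, CD8A and CD8B were at 0 in every library and CD3G was at or under 0.034 FPKM, while CD3E reached 396 to 554 FPKM, and the summed FPKM was 411 to 500 in NK scramble and 473 to 572 in NK shADAR1 libraries. THEMIS, a signaling protein of T cell development, had a log2 fold change of 0.50 (SE 0.21, edgeR adjusted p = 1.00). The summed FPKM of 4 B cell markers was 2.98 to 4.05 and 2.98 to 7.72, with MS4A1 at 0 and PAX5 and CD79A detected. That of 8 myeloid markers was 25.3 to 34.1 and 34.6 to 36.6, of which ITGAX, also an NK cell integrin, gave most, with S100A8 at 0. That of 8 markers of packaging or tumor cells was under 1 in every library, at 0.405 to 0.903 and 0.599 to 0.633, with TYR and NEFL at 0. The part of these in the cytokine values was not tested.

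The cytokine genes covered a wide range of levels in culture with interleukin 2 and no added target cell. Levels between genes are compared by FPKM, which divides by transcript length. IL32 was far above all other members with a mean over the 4 libraries of 1512 FPKM, a level of the same order as the NK granule genes NKG7 and GZMA. LTB followed with 161 FPKM and TGFB1 with 140 FPKM. LTA (34.1 FPKM), IFNG (27.6 FPKM) and IL10 (23.3 FPKM) formed a middle tier, and TNF stood at 9.95 FPKM. CSF2 was at the edge of detection with a mean of 0.227 FPKM, and IL13 and IL5 had 0 counts in all 4 libraries.

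**Figure D1:**
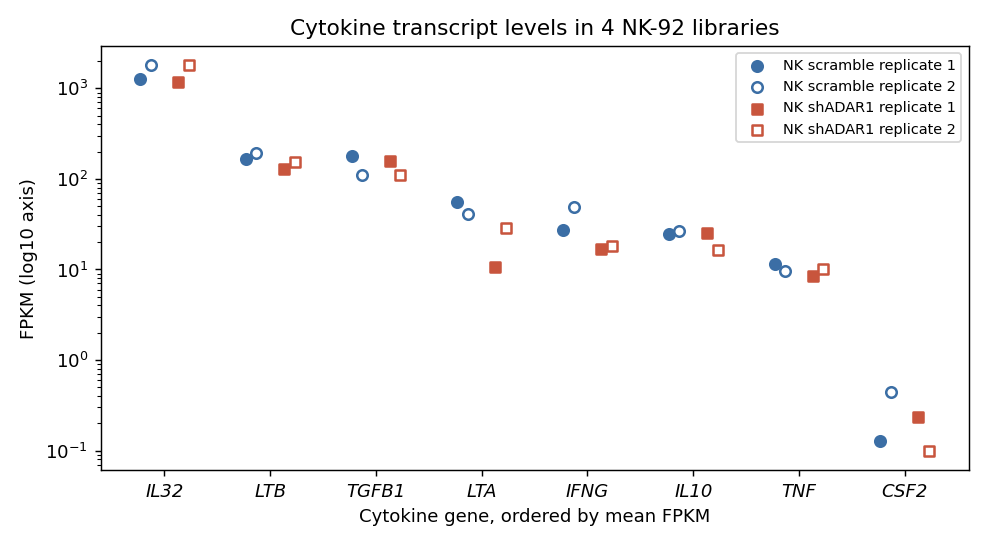
FPKM of the 8 detected cytokine genes (vertical axis, logarithmic) in each of the 4 libraries, with circles for NK scramble and squares for NK shADAR1, filled for replicate 1 and open for replicate 2. IL32 stands at 1184 FPKM or more in all 4 libraries and CSF2 at 0.445 or less, and IL13 and IL5, at 0 in all libraries, are not drawn.

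Neighbors in this order were separate in 4 of 7 pairs. IL32 was 9.39 times LTB on the means, with its lowest library (1184 FPKM) above the highest of LTB (193 FPKM). TGFB1 stayed above LTA, IL10 above TNF and TNF above CSF2 in all 4 libraries, with no overlap of their ranges. The ranges overlapped for LTB and TGFB1, for LTA and IFNG and for IFNG and IL10, so the order within those pairs was not beyond the spread. Without NK scramble replicate 1, IFNG came before LTA, and without NK scramble replicate 2, IL10 came before IFNG. The summed FPKM of the 10 genes was 1738 and 2231 in the control and 1531 and 2130 in the knockdown libraries, and IL32 alone made up 73.1% to 84.0% of it. Without IL32 the sum was 467 and 430 in the control and 347 and 340 in the knockdown libraries, lower in both knockdown libraries. With IL32 the groups overlapped. These sums are FPKM without TMM scaling, and no difference between them was tested.

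The comparison of NK shADAR1 with NK scramble asks which cytokine transcripts differed when ADAR1 was targeted. IFNG and LTA were the members with the largest differences, at 0.457 and 0.410 times the NK scramble level in the fit. LTB was lower in both knockdown libraries by a smaller margin, and TNF, TGFB1 and IL32 overlapped between the groups. IL10 was lower in both only in CPM. By FPKM its groups overlapped, with 25.3 in NK shADAR1 replicate 1 and 24.7 in NK scramble replicate 1. Of the 10 genes, 7 passed the filter on low counts and were tested, and 0 of 7 passed an adjusted p of 0.05 with a fold of 1.5, as for 0% of all tested genes. At an unadjusted p under 0.05 with that fold, 2 of 7 members were lower and 0 higher, beside 0.542% of all tested genes lower and 1.8% in either direction. In CPM, both knockdown libraries lay below both NK scramble libraries for 4 of 7 members, IL10 among them by a near tie, beside 12.6% of tested genes. They lay above them for 0 of 7, beside 13.3%. The fitted log2 fold changes of all 7 lay below 0 with a median of -0.33, where the median of all tested genes was 2.76e-05. The members were chosen with results of these libraries known, so these counts are a description.

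**Figure D2:**
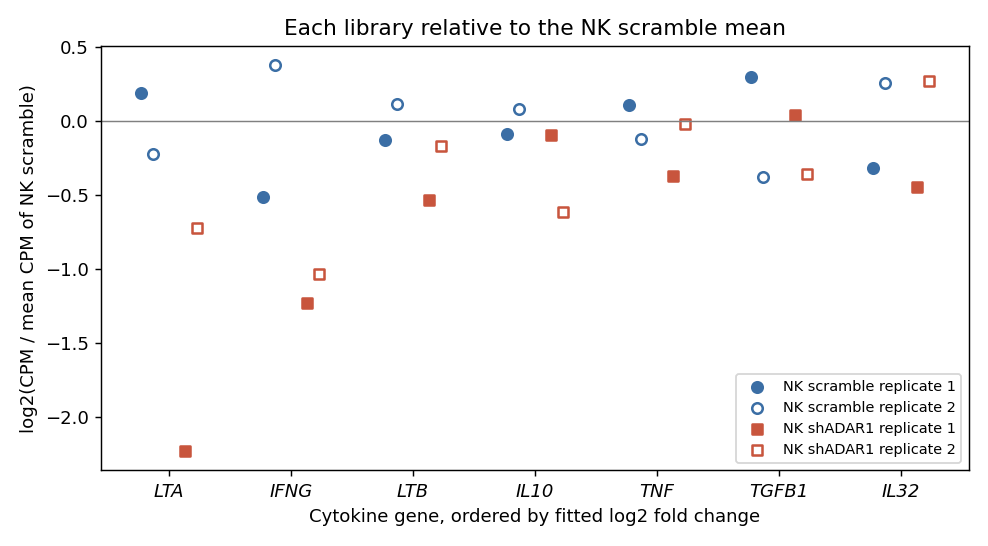
The log2 ratio of the CPM of each library to the mean CPM of NK scramble (vertical axis) for the 7 tested cytokine genes, ordered by fitted log2 fold change, with circles for NK scramble and squares for NK shADAR1, filled for replicate 1 and open for replicate 2. Squares lie below both circles for LTA, IFNG, LTB and IL10, by the least for IL10, and TGFB1 and IL32 divide by replicate number in both groups.

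IFNG (ENSG00000111537) had 1290 and 2356 estimated counts in NK scramble replicates 1 and 2 and 775 and 840 in NK shADAR1 replicates 1 and 2, which is 32.3 and 60.0 CPM against 19.7 and 22.5 CPM. The knockdown libraries were close to each other and both below the lower NK scramble library, while the NK scramble libraries differed by 1.86 times. The means were 46.1 ± 19.6 and 21.1 ± 1.97 CPM (SD, n = 2 each), and the log2 fold change was -1.13 (SE 0.28, 95% interval -1.75 to -0.50). By edgeR the unadjusted p was 0.00236 and the adjusted p was 1.00, and IFNG ranked 9 among all tested genes by p. DESeq2 gave an adjusted p of 0.291. The size rested on NK scramble replicate 2, without which the log2 fold change was -0.62, and without NK scramble replicate 1 it was -1.51.

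LTA (ENSG00000226979) had 3150 and 2334 estimated counts in NK scramble libraries and 580 and 1566 in NK shADAR1 replicates 1 and 2, which is 78.9 and 59.4 against 14.7 and 41.9 CPM. All knockdown values were below both controls, and here the knockdown libraries stood apart, with replicate 2 at 2.84 times replicate 1. The means were 69.1 ± 13.8 and 28.3 ± 19.2 CPM (SD, n = 2 each), and the log2 fold change was -1.29 (SE 0.39, 95% interval -2.16 to -0.42). By edgeR the unadjusted p was 0.00787 and the adjusted p was 1.00, and DESeq2 gave an adjusted p of 0.443. Without NK shADAR1 replicate 1 the log2 fold change was -0.72, and without NK shADAR1 replicate 2 it was -2.23. It was -1.07 without NK scramble replicate 1 and -1.48 without NK scramble replicate 2.

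LTB (ENSG00000227507), the membrane partner of LTA, was higher per length than LTA in every library. It had 145 and 172 CPM in the control and 109 and 141 CPM in the knockdown libraries, so the nearest values of the groups were 145 and 141 CPM. The log2 fold change was -0.34 (SE 0.21, 95% interval -0.81 to 0.13, edgeR adjusted p = 1.00), and it was -0.17 without NK shADAR1 replicate 1 and -0.54 without replicate 2. TNF (ENSG00000232810) had 19.2 and 16.4 CPM in the control and 13.8 and 17.5 CPM in the knockdown libraries, and the groups overlapped. Its log2 fold change was -0.18 (SE 0.23, 95% interval -0.69 to 0.32, edgeR adjusted p = 1.00), and it was -0.019 and -0.37 without NK shADAR1 replicate 1 or 2.

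LTA, TNF and LTB lie side by side in 10469 bases of chromosome 6, at 31572054-31574324 (LTA, plus strand), 31575567-31578336 (TNF, plus strand) and 31580525-31582522 (LTB, minus strand) in GENCODE release 29 (GRCh38), with gaps of 1243 and 2189 bases. These coordinates are from the annotation, as the build behind the deposited table is not given in the sources used here. The log2 fold changes along the locus were -1.29, -0.18 and -0.34, and the differences between these genes were not tested. The listed genes that flank the locus had log2 fold changes of 0.016 (SE 0.23) for NFKBIL1, an NF-kappa B inhibitor-like protein, and 0.26 (SE 0.25) for LST1, a leukocyte transcript. Both overlapped between the groups, with 18.5 to 25.7 CPM for NFKBIL1 and 9.37 to 14.3 CPM for LST1 over the 4 libraries.

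**Figure D3:**
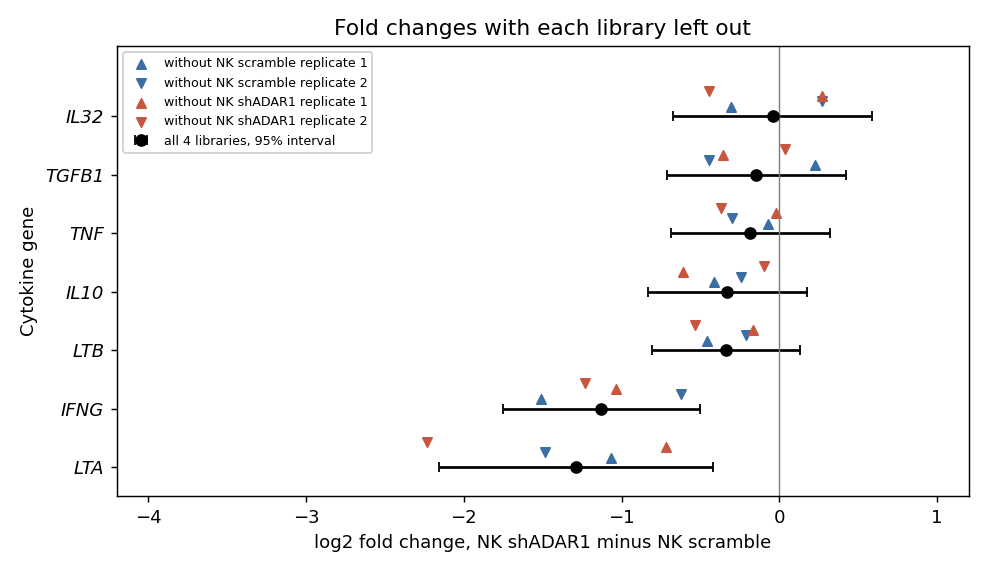
Log2 fold change of NK shADAR1 minus NK scramble (horizontal axis) for the 7 tested cytokine genes, with black points and bars for the fit of all 4 libraries and its 95% interval, and triangles for the fits without 1 library each. IFNG and LTA stay below 0 in all 4 such fits, at -1.51 to -0.62 and -2.23 to -0.72, and TGFB1 and IL32 lie on both sides of 0.

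IL10 (ENSG00000136634), an inhibitor of cytokine production by macrophages and T cells, had 39.7 and 44.7 CPM in the control and 39.6 and 27.6 CPM in the knockdown libraries. NK shADAR1 replicate 1 was level with the lower control and only replicate 2 was clearly below. The log2 fold change was -0.33 (SE 0.23, 95% interval -0.83 to 0.17, edgeR adjusted p = 1.00), and it was -0.096 without NK shADAR1 replicate 2 and -0.61 without replicate 1. IL10 lies on the minus strand of chromosome 1 (206767602-206772494), between MAPKAPK2, a kinase that stabilizes cytokine mRNA, with a log2 fold change of -0.030 (SE 0.20), and IL19, a cytokine of the IL-10 family, with 0.084 (SE 0.48).

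TGFB1 (ENSG00000105329) had 494 and 310 CPM in the control and 413 and 314 CPM in the knockdown libraries. Replicate 1 was the higher library in both groups, and the groups overlapped. The log2 fold change was -0.14 (SE 0.26, 95% interval -0.71 to 0.42, edgeR adjusted p = 1.00), and it was 0.23 without NK scramble replicate 1. TGFB1, on the minus strand of chromosome 19 (41301587-41353911), overlaps HNRNPUL1, CCDC97 and TMEM91 on the other strand, and the library kit did not mark strand, so reads in shared bases cannot be assigned to 1 gene. HNRNPUL1, the most abundant of these with 691 to 825 CPM, had a log2 fold change of -0.0012 (SE 0.21).

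IL32 (ENSG00000008517) had 1043 and 1558 CPM in the control and 955 and 1570 CPM in the knockdown libraries. Here replicate 2 was the higher library in both groups, by 1.49 and 1.64 times, and the log2 ratios to the NK scramble mean were -0.32 and 0.26 in the controls and -0.45 and 0.27 in the knockdown libraries. The log2 fold change was -0.043 (SE 0.29, 95% interval -0.68 to 0.59, edgeR adjusted p = 1.00), an interval that takes in a 1.5-fold difference both ways, and it was 0.27 without NK scramble replicate 2. IL32 lies on the plus strand of chromosome 16 (3065297-3082192), after MMP25, a membrane-bound matrix metalloproteinase, with 67.9 and 41.5 against 84.6 and 42.8 CPM.

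CSF2 (ENSG00000164400) had 4 and 14 estimated counts in the control and 7 and 3 in the knockdown libraries. The groups overlapped at counts too low for the test. IL13 (ENSG00000169194) and IL5 (ENSG00000113525) had 0 counts in all 4 libraries, which allows up to 3 counts or 0.0751 to 0.0792 CPM per library for counting error alone. These genes lie in the cytokine cluster of chromosome 5, at 132073790-132076170 (CSF2), 132541444-132556838 (IL5) and 132656263-132661110 (IL13). In the same cluster IL3 was at 0 in all libraries and IL4 had 3 counts in 1 NK shADAR1 library. IRF1, the interferon-responsive transcription factor next to IL5, had 185 and 185 CPM in the control and 178 and 133 CPM in the knockdown libraries (log2 fold change -0.25, SE 0.21), so both knockdown libraries were lower without passing the test. RAD50, a DNA repair gene on the other strand that overlaps IL5, had 37.9 to 69.8 CPM and overlapped between the groups.

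IFNG lies on the minus strand of chromosome 12 (68154768-68159747) and is overlapped on the other strand by the antisense gene IFNG-AS1, for which no value was used here. The next listed genes were IL26, a cytokine of the IL-10 family, with 1 to 4 counts in each library, and DYRK2, a kinase, with 47.2 and 64.6 against 61.2 and 51.7 CPM.

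The lists of other genes around the cytokines had few members past a threshold, as the plot of the lists shows. Of 63 other cytokine genes, 16 were at 0 in all libraries and 25 were tested, and 0 passed with or without adjustment at a fold of 1.5. In CPM, both knockdown libraries were below both controls for 4 of 25 (IL6, IL12A, IL24 and OSM) and above for 2 (IL16 and CTF1). The shares of all tested genes were 12.6% and 13.3%. By FPKM the groups overlapped for IL6, IL12A and OSM. The median log2 fold change of the list was -0.15. MIF, a macrophage-directed cytokine, was the highest with 580 to 752 FPKM, a level second to IL32 among the cytokine genes, and had a log2 fold change of -0.15 (SE 0.20). IL16, a chemoattractant of CD4 cells, had 92.8 to 115 FPKM and a log2 fold change of 0.21 (SE 0.20), and FASLG, the membrane ligand of the death receptor FAS, had 42.4 to 66.7 FPKM and 0.25 (SE 0.22). OSM, an IL-6 family cytokine, had 2.31 and 3.94 CPM in the knockdown libraries, both below the controls, with a log2 fold change of -0.45 (SE 0.37). IL24, a cytokine of the IL-10 family, had 1.18 to 1.53 CPM and a log2 fold change of -0.21 (SE 0.45). The count past the unadjusted p and the fold moved in some fits that left out 1 library. Those fits tested a slightly different set of genes, and no share of all tested genes is given for them.

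Receptors for several of the cytokines were not detected or nearly so. Of 19 receptor genes, 12 were tested and 0 passed, with a median log2 fold change of -0.050. CSF2RA, IL5RA and IL13RA2, receptor chains for GM-CSF, IL-5 and IL-13, were at 0 in all libraries, and LTBR, the receptor of the LTA and LTB heterotrimer, IL13RA1 and the interferon gamma receptor chain IFNGR2 were at or under 0.035 FPKM. IFNGR1, the ligand-binding chain for interferon gamma, had 12.6 to 13.7 FPKM. The TNF receptors were present, TNFRSF1B with means of 138 and 126 FPKM in NK scramble and NK shADAR1 (log2 fold change -0.14, SE 0.20) and TNFRSF1A with 38.3 and 35.6 FPKM (-0.085, SE 0.20). IL10RA, the ligand-binding chain for IL-10, had 94.3 and 103 CPM in the control and 144 and 112 CPM in the knockdown libraries, higher in both knockdown libraries with a log2 fold change of 0.37 (SE 0.21, edgeR adjusted p = 1.00). TGFBR3, a TGF-beta co-receptor, had 0.25 (SE 0.21) and IL4R, which pairs with IL-13 receptors, -0.17 (SE 0.19).

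Of 19 genes for release of TNF and latency of TGF-beta, 11 were tested and 0 passed, with a median log2 fold change of -0.051. NRROS, which holds latent TGF-beta 1 at the surface of myeloid cells, was the most abundant of these with 269 and 181 CPM in the control and 150 and 181 CPM in the knockdown libraries, and the groups met at 181 CPM (log2 fold change -0.44, SE 0.23). LRRC32 (GARP), the comparable anchor on regulatory T cells, was at 0 in all libraries. ADAM10, a membrane sheddase, had 92.1 and 83.5 against 140 and 100 CPM (log2 fold change 0.45, SE 0.22, edgeR adjusted p = 1.00). The proprotein convertases PCSK7 and FURIN had log2 fold changes of 0.25 (SE 0.19) and -0.36 (SE 0.29). For this list too, the count past the unadjusted p and the fold moved in some fits without 1 library, which tested slightly different sets. No share of all tested genes is given for those fits.

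Among 36 transcription factors of cytokine genes, 33 were tested and 0 passed the adjusted p. RELB, a subunit of the alternative NF-kappa B pathway, was the only one past the fold of 1.5 with an unadjusted p below 0.05, beside 1.8% of all tested genes. That count moved in some fits without 1 library, for which no share of all tested genes is given. RELB had 25.5 and 25.8 CPM in the control and 17.8 and 13.7 CPM in the knockdown libraries, and the controls were close to each other and above both knockdown libraries. Its log2 fold change was -0.70 (SE 0.22, edgeR adjusted p = 1.00). In CPM, both knockdown libraries were below the controls for 7 of 33 factors (RELB, STAT3, BHLHE40, JUNB, IRF1, NFIL3 and AHR). They were above for 3 (STAT4, STAT6 and IKZF1), where the shares of all tested genes below and above were 12.6% and 13.3%. By FPKM the groups overlapped for STAT3, IRF1 and IKZF1. The median log2 fold change of the list was -0.077. ETS1, the highest by FPKM, had -0.075 (SE 0.23) and BHLHE40, a cofactor of IFNG expression, -0.22 (SE 0.21). JUN, a subunit of AP-1, had -0.49 (SE 0.28) and AHR, the aryl hydrocarbon receptor, -0.49 (SE 0.29). TBX21 (T-bet) and EOMES, which drive IFNG in NK cells, were expressed at 62.6 to 88.3 and 75.8 to 103 FPKM and overlapped between the groups.

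Of 27 factors of cytokine mRNA decay, 26 were tested and 0 passed, with a median log2 fold change of 0.018. HNRNPD (AUF1), which binds AU-rich elements, was the highest with means of 355 and 366 FPKM in NK scramble and NK shADAR1 and a log2 fold change of 0.022 (SE 0.30). KHSRP and PCBP1, which bind AU-rich and C-rich elements, had -0.19 (SE 0.25) and -0.077 (SE 0.20). XRN1, the 5′ to 3′ exonuclease, had 0.43 (SE 0.24), PARN, a deadenylase, 0.30 (SE 0.21), and UPF1, the helicase of nonsense-mediated decay, -0.29 (SE 0.25). The count of this list past the unadjusted p and the fold moved in each fit without 1 library, for which no share of all tested genes is given.

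Other genes had patterns over the 4 libraries close to those of the cytokines. Likeness was measured as the root mean square difference of centred log2 CPM over the 4 libraries among the 9875 genes whose mean reached 100 counts, so that a low value means a similar pattern and not a similar level. ATF3, a stress-induced transcription factor, was nearest to LTA (0.0538, where the median gene was at 0.919), with 13.5 and 9.82 CPM in the control and 2.64 and 7.52 CPM in the knockdown libraries. Like LTA, it was lowest in NK shADAR1 replicate 1. COL5A2, a fibrillar collagen chain (0.232), and INHBE, an activin subunit (0.293), came next. The genes nearest to IFNG were 2 with no symbol in the name table, ENSG00000267303 (0.1) and ENSG00000284292 (0.128), followed by CD38, an NAD-consuming ectoenzyme of activated lymphocytes (0.239, where the median gene was at 0.631). CD38 had 32.7 and 45.3 CPM in the control and 21.0 and 26.6 CPM in the knockdown libraries, highest in NK scramble replicate 2 as IFNG was.

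For each of the other members the single nearest gene was at less than 0.0538. Their median genes were nearer too, at 0.231 (TNF) to 0.352 (IL32), so these values are not closer matches in themselves. IL10 was followed by RIGI, the cytosolic double-stranded RNA sensor (0.0451, where the median gene was at 0.311), with 28.1 and 30.7 CPM in the control and 27.1 and 17.9 CPM in the knockdown libraries, and by SLC12A2 and SP110. LTB was nearest to SMIM20 (0.0148) and PNO1, TNF to STIMATE (0.0103) and TRAP1, TGFB1 to POMGNT2 (0.0155), FLYWCH1 and SCAF1, and IL32 to GPANK1 (0.0169), COX7A2 and PCLAF. With 4 libraries many genes share a pattern, and nothing on shared function or control is drawn from it.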

How the data were processed

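RNA from 4 NK-92 libraries was selected with oligo(dT) beads and read on a NovaSeq instrument. For 20323 genes by Ensembl identifier, the authors deposited estimated counts (not normalized, not always whole) and FPKM. Reads were filtered with fastp 0.18.0 per the labels. Aligner, counter, build and annotation are not given in the sources used here. A symbol was found for 20301 genes.

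Estimated counts were rounded, filtered (filterByExpr, minimum count 10), scaled by TMM and tested without covariates by the quasi-likelihood test of edgeR 4.0.16 (R 4.3.3), with Benjamini-Hochberg adjustment over 11810 genes. Calls needed an adjusted p under 0.05 and a fold of at least 1.5. The SE is the size of the log2 fold change over the square root of F. An exact permutation test of 2 against 2 cannot go below p = 0.333 and was not used. FPKM served for levels only in the main analysis. Alternatives were DESeq2 1.42.0, limma 3.58.1 on log2(FPKM + 1) and log2(FPKM + 0.1), RLE and upper quartile scaling, other filters, no fold threshold, a replicate block, and leaving out each library. The scripts were tested on simulated data.

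The members and lists were chosen with earlier results of these data known. Named genes were the members, ADAR, per list the 3 highest by mean FPKM, those past an unadjusted p of 0.05 and a fold of 1.5 and the 3 with the largest change at a mean of at least 50 counts, the 3 nearest in pattern to each member, and chromosomal neighbors. Of the genes nearest in pattern, 2 are not reported here. Other genes, such as separated list members, receptor chains, TBX21 and EOMES, were named after their values were seen. Counting error is small at this depth except for CSF2, and precision is set by 2 libraries a group.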

Additional observations from a re-analysis of the deposited data

How the results depend on the processing

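Of the cytokine genes, 0 passed the adjusted p and fold with DESeq2, limma on FPKM, RLE or upper quartile scaling, other filters or no fold threshold. Leaving out 1 library leaves a lone library that is assumed to vary like the other group. Only effect sizes of the members are therefore given for those fits. In those fits the median log2 fold change of the tested members was -0.45 to -0.30. TGFB1 turned to 0.23 without NK scramble replicate 1 and to 0.037 without NK shADAR1 replicate 2, and IL32 to 0.27 without NK scramble replicate 2 and to 0.27 without NK shADAR1 replicate 1. The other 5 tested members stayed below 0 under all 13 alternatives. The count at an unadjusted p with the fold was 2 under all alternatives that kept the 4 libraries, beside 213 of all tested genes in the main fit. For the alternatives other than the block below, the count over all tested genes was not taken.

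With the replicate number as a block, 1 cytokine gene passed, IFNG (log2 fold change -1.07, adjusted p = 0.0425), and 13 genes passed among all tested genes, against 0 without the block. With the block, 1 of 25 tested other cytokines passed the unadjusted p and the fold, against 0 without it. Without the low-count filter 1 of 17 tested genes of release and latency did. No share of all tested genes is given for that fit, so nothing is drawn on the list. At an unadjusted p with the fold, 306 genes passed with the block and 213 without. Deviations of same-numbered libraries from their group means correlated at 0.308 over tested genes and at -0.012 over the 7 members, but with 2 pairs the numbers alone do not show a pairing. With 2 libraries a group, the interval of IL32 takes in a 1.5-fold difference both ways, and counts of 3 to 14 limit CSF2.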
